A study of Mus musculus with 30 samples.

Results

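Among the 30 ovary libraries, 7 held far more transcripts of Ovgp1, the gene of oviductin, than the rest. They were selected on that measured value: a library was placed in the Ovgp1-rich group when its deposited Ovgp1 level was over 5000 normalized counts, and the other 23 formed the Ovgp1-poor group. Each of 15 female C57BL/6 mice gave 1 library per ovary. 7 mice (14 libraries) had been given 3% dextran sulfate sodium (DSS), a polysaccharide that injures the lining of the colon, in the drinking water for 7 days while sexually immature. The other 8 mice (16 libraries) were littermate controls, and ovaries of both groups were taken at maturity. No genotype other than the strain is stated, and the ages in days are not given in the sources used here. The labels name each mouse by a number, as in DSS_11.2, and each ovary by its side. Because the groups were chosen by Ovgp1, every difference between them is given as a description, with no test, and the Ovgp1 values support nothing.

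Oviductin is a glycoprotein secreted by the epithelium of the oviduct, the tube that lies against the ovary under the bursa in the mouse. That epithelium holds secretory cells and multiciliated cells. Foxj1 is the transcription factor that turns on the genes of motile cilia, and RFX factors bind the promoters of many of them through a sequence called the X-box. The wall of the oviduct also contains smooth muscle, and fat surrounds the bursa. The ovary itself is made up of oocytes, granulosa cells, theca cells, corpora lutea and stroma.

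The 7 rich libraries were, from the highest, DSS_11.2 left with 66716 normalized counts of Ovgp1, control_10.5 right with 41925, DSS_10.4 left with 25161, control_13.4 right with 18628, DSS_11.1 right with 10440, DSS_11.1 left with 9953 and control_16.9 right with 9169. They thus spanned a wide range, and 1 mouse, DSS_11.1, had both of its ovaries in the rich group. The 23 poor libraries lay between 110.15 and 4798 with a median of 325. The value just inside the limit was 9169, and those just outside were 4798 in DSS_13.2 right and 3064 in control_11.4 right. The share of all normalized counts taken by Ovgp1 was 0.211% to 1.57% in the rich libraries and 0.00248% to 0.106% in the poor ones. Ovgp1 (ENSMUSG00000074340.9) lies on chromosome 3 at 105973711-105987723 of GRCm38 and overlaps Gm42890. The strand setting of the counting is not stated, so a gene that overlaps another is uncertain here.

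Across the series, recovered reads per library ran from 3095386 to 8564770. Rich libraries had 3434761 to 4959263 reads and poor ones 3095386 to 8564770, with medians of 4198578 and 4311720. Mitochondrially encoded transcripts took 19.3% to 23.3% of the counts in rich and 18.01% to 24.1% in poor libraries. Depth and mitochondrial share thus overlapped between the groups. All 30 libraries carried ovarian markers: the summed granulosa list was at least 11083 and the summed oocyte list at least 842 normalized counts in each. Nothing in the labels says that mice were pooled, and the mouse was the unit of replication in every test below.

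**Figure D1:**
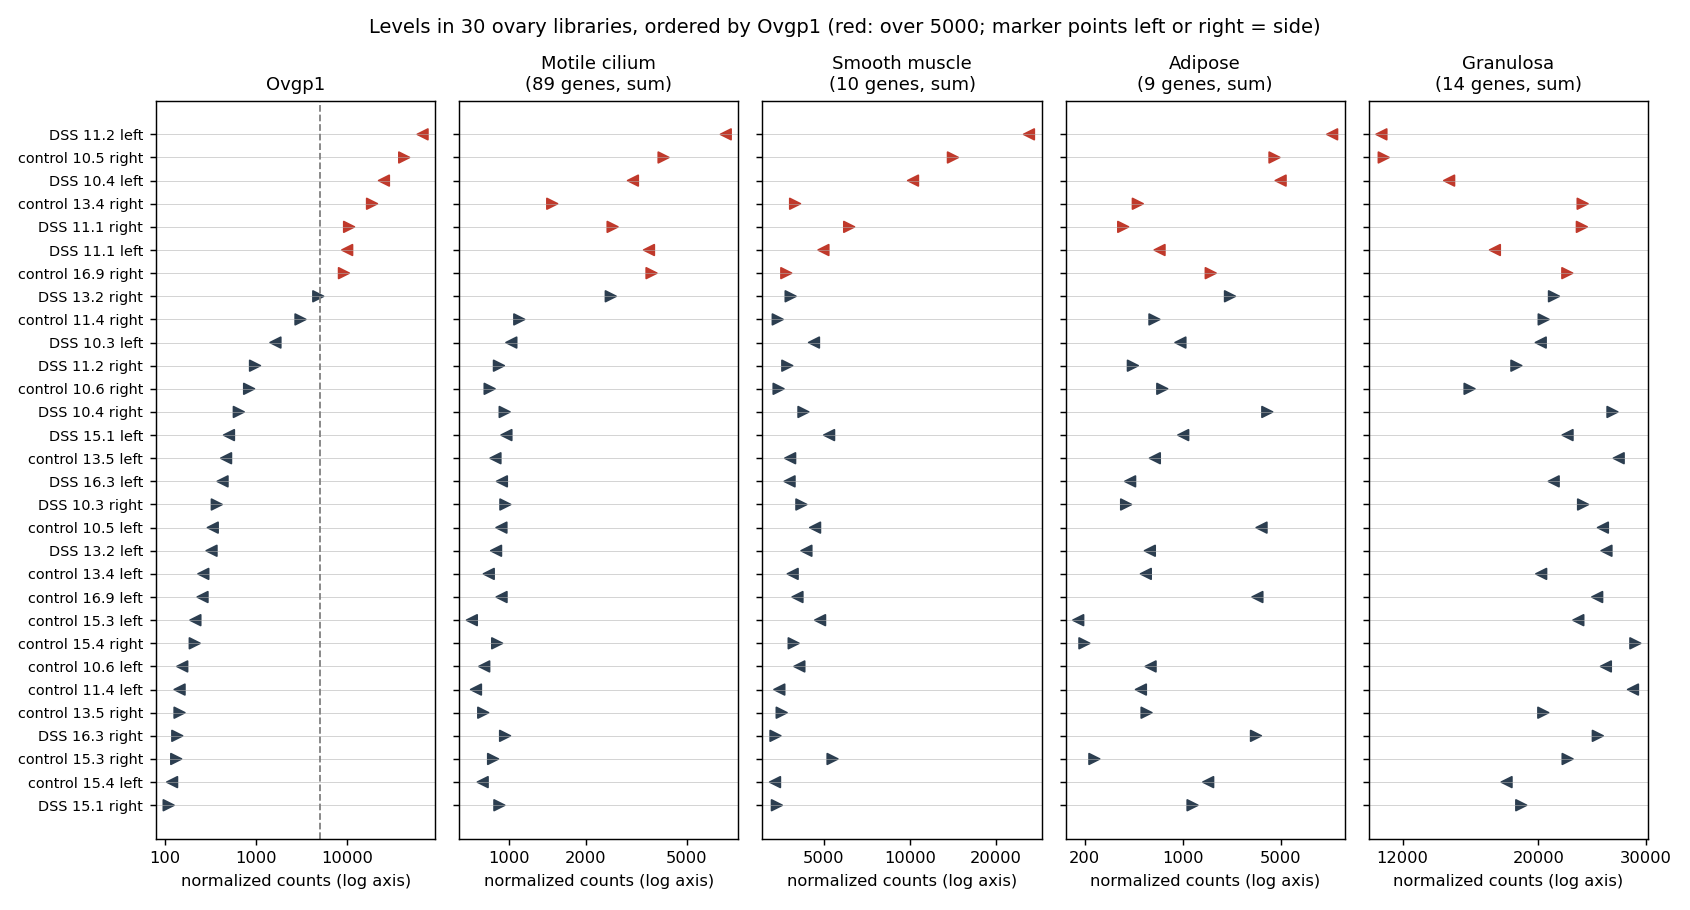
Normalized counts (log axes) of Ovgp1 and of 4 summed gene lists in the 30 libraries, 1 row per library ordered by Ovgp1; red marks the 7 libraries over the limit of 5000 (dashed line) and the arrowheads point to the side of the ovary. Cilium sums run from 1477 to 7139 in red against 712 to 2513 in the others, whereas smooth muscle sums are highest in the 3 rows at the top, from 10272 to 26208.

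The treatment and side of the rich libraries come from the labels and were not used in choosing them. A rich library was found in 3 of 7 DSS mice and 3 of 8 control mice (two-sided Fisher's exact test over mice, p = 1). Of the 5 mice with 1 rich and 1 poor ovary, 2 had the rich one on the left and 3 on the right (exact two-sided binomial test, p = 1; 5 mice allow no p below 0.0625). Counted by library, however, 3 rich libraries were DSS left, 1 was DSS right, 0 were control left and 3 were control right. That uneven split was not tested, since libraries of 1 mouse are not independent.

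Of 14646 genes with a mean of at least 5 normalized counts, 43 (0.294%) had all 7 rich values above all 23 poor values, and 0 (0%) had all 7 below. Medians were at least 2-fold higher in the rich group for 455 genes (3.11%) and at least 2-fold lower for 22 (0.15%). Within the 5 mice that had 1 ovary of each kind, 942 genes (6.43%) were higher in the rich ovary of every mouse and 721 (4.92%) were lower in every mouse. The genes with separated groups were thus all in 1 direction, while differences shared by all 5 mice were found in both. Of the 43, only 31 also had a mean of at least 5 over mice in the poor libraries. The filter can thus pass genes only through the rich libraries, which were chosen by a high value. The asymmetry is therefore a description only. Differences below are log2 differences of group medians after adding 1, which understates the change of low genes. The median of all genes was -0.01.

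A2ml1, a protease inhibitor of the alpha-2-macroglobulin family, had the largest difference, 6.00. Its levels were 1940, 1558, 811.55, 815.34, 339, 275 and 373 normalized counts in the rich libraries, in the order of Ovgp1 above, against 2.74 to 223 (median 11.7) in the poor ones. The groups did not overlap, and the 3 libraries highest in Ovgp1 were among the 4 highest in A2ml1. Ovgp1, which set the groups, followed with 5.84. Atp13a5, a transporter ATPase, differed by 4.87, with 33.2 to 221 against 0 to 23.7. Alox12e, an epidermal-type lipoxygenase, differed by 4.53, with 20.9 to 223 against 0 to 9.78. Next came Plekhs1 (4.35), Caly (4.19), and Slc14a1 (4.08), a urea transporter. The other genes named by the rule, Scgb1c1, 1500015O10Rik, Ccdc180, Fndc7, Wfdc15b, Lrrc71, Plet1 and Cfi, differed by 2.90 to 3.95. Of these 15 genes, Ovgp1, Atp13a5, Scgb1c1, 1500015O10Rik, Fndc7, Lrrc71 and Plet1 overlap another annotated gene.

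Markers of the Mullerian duct and of epithelium were among the 43. From the oviduct list, Pax8 (2.58) and Sox17 (1.07), transcription factors of the duct epithelium, did not overlap between groups, besides Ovgp1. Sox17 stood at 992, 598 and 456 in the 3 libraries highest in Ovgp1 and at 127 to 184 in the other 4, against 62.7 to 115 in the poor libraries. From the epithelium list, the adhesion molecule Epcam (1.19), the keratin Krt18 (1.79) and Prom1 (1.80) were separated as well. Pax8, Sox17 and Prom1 share positions with another annotated gene and are uncertain, whereas Epcam and Krt18 do not. Epcam read 240 to 1079 in rich and 71.9 to 226 in poor libraries. The complement gene C3 (1.34) and the estrogen-responsive Ltf (2.40) overlapped. Ltf reached 212 in a poor library and stood at 145 in a rich one. Summed without Ovgp1, the oviduct list was 669 to 4843 in rich and 319 to 1063 in poor libraries. Only 3 rich libraries lay above all poor ones. The ratio of rich over poor ovary was 2.64, 12.5, 2.93 and 1.47 in DSS_10.4, DSS_11.2, control_10.5 and control_13.4, but 0.953 in control_16.9. Of the measured genes, 13 of 13 in epithelium and, leaving out Ovgp1, 11 of 12 in oviduct had the higher median in the rich group. Of all 14646 genes, 7138 did. The filter passes some of these members only through the rich libraries. Of the 13 and the 12, 9 and 7 also had a mean of at least 5 over mice in the poor libraries.

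Foxj1 (chromosome 11, 116330404-116335399) read 149, 59.96, 58.2, 9.61, 26.1, 47.3 and 65.4 in the rich libraries, ordered by Ovgp1. In the poor libraries it ran from 0 to 26.5 with a median of 1.09. The groups overlapped: DSS_13.2 right, a poor library, read 26.5 and stood above the rich libraries control_13.4 right and DSS_11.1 right. Within the 5 mice Foxj1 was higher in the rich ovary each time, by 3.41 to 6.43 on the log2 scale.

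The other cilium genes are described together. Of 89 genes in 3 lists (regulators of ciliogenesis, axonemal dyneins with their assembly factors, and other axoneme genes), 61 had a mean of at least 5, and this filter passes some genes only through the rich libraries. Of the 61, 32 also had a mean of at least 5 over mice in the poor libraries. Of these 61, 61 had the higher median in the rich group, 48 by at least 2-fold, and 44 were higher in the rich ovary of all 5 mice. Their median difference was 2.47. Of all 14646 genes, 7138 had the higher median, 455 by at least 2-fold, and 942 were higher in every mouse. None of the 61 separated the groups fully, while 2 genes with lower means, Spag6l and Iqcg, did. Ccdc153, an axoneme protein, read 806, 391.8, 277, 103, 271, 363 and 431 in rich libraries, in the order of Ovgp1, against 1.33 to 241 in poor ones. Again the highest poor value was that of DSS_13.2 right and the lowest rich value that of control_13.4 right. Dnali1, a dynein light chain, read 16.4 to 117 against 0.91 to 37.9, and Dnaaf1, which assembles dyneins, 12.5 to 91.7 against 0 to 31.2. Rfx2, a regulator of cilium genes, differed by 0.91 and Rfx3 by 0.46. Ccdc153, Dnali1, Dnaaf1, Rfx3, Spag6l and Iqcg overlap another annotated gene and are uncertain, whereas Foxj1 and Rfx2 overlap none. Without DSS_13.2 right, 131 genes had no overlap in place of 43, and without control_13.4 right 125 did.

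The start-site regions of cilium genes are shown because these genes were high together. Of the 89 genes, 72 had a promoter in the RefSeq table (build GRCm38.p6, 300 bases from 250 before to 50 after the start). The letters GTTGCC, which form one arm of the X-box, occurred on either strand in 35 of the 72 (48.6%), against 14.1% of 27025 genes in the table and 14.7% of the genes tested here. They occurred in 6 of 34 (17.6%) of the genes without overlap that had a promoter. This pattern is 1 of 9 that were searched after the values were seen, so the share is a description and a match is not a binding site. The longer GTTGCCA, which contains it, was found in 20.8% of the 72 against 5.03% of all, and the forkhead letters TGTTTAC in 6.94% against 4.05%. Each stretch below is read on the gene's strand, with the match in capitals. They belong to the 4 genes with the highest rich median among those with a match before the RefSeq start.
Ccdc153: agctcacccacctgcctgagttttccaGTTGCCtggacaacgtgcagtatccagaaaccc
Mns1: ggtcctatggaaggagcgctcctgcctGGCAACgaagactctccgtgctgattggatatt
Rfx2: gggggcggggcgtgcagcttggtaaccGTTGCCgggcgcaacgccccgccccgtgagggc
Mlf1: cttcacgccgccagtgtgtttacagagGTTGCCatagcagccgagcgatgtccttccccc

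These stretches lie at chr9:44240498-44240557 (Ccdc153, plus strand), chr9:72438430-72438489 (Mns1, plus strand, match on the other strand), chr17:56831092-56831151 (Rfx2, minus strand) and chr3:67373965-67374024 (Mlf1, plus strand). The Mns1 stretch lies before the RefSeq start but inside the deposited span of the gene, which begins at 72438011. The genes differed in how far they stood apart: 4.59 for Ccdc153, 0.47 for Mns1, 0.91 for Rfx2 and 0.32 for Mlf1. Within mice, Mlf1 differed by -0.24 in DSS_10.4 and -0.28 in DSS_11.2. In control_10.5, control_13.4 and control_16.9 it differed by 0.09, 0.22 and 0.67. Ccdc153, Mns1 and Mlf1 overlap another annotated gene, so their values are uncertain.

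The other lists took different values within the 7 rich libraries. The summed cilium lists, less the median of the poor libraries, came to 6228, 3148 and 2163 normalized counts in DSS_11.2 left, control_10.5 right and DSS_10.4 left. In control_13.4 right the excess was 566. In DSS_11.1 right, DSS_11.1 left and control_16.9 right it was 1645, 2645 and 2727, and in the poor library DSS_13.2 right 1603. DSS_11.2 left was thus the highest and control_13.4 right the lowest of the rich libraries, and DSS_13.2 right, just under the Ovgp1 limit, exceeded the latter.

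Smooth muscle genes were highest in the 3 libraries highest in Ovgp1. Myh11, the smooth muscle myosin heavy chain, read 12992, 7310 and 5197 in those 3 and 1414 to 2540 in the other 4, against 1071 to 2422 in the poor libraries. The excess of the smooth muscle list over the poor median was 22322, 10291 and 6387 in them, then 75.7 in control_13.4 right, 2246 and 1095 in the right and left ovary of DSS_11.1, and -196 in control_16.9 right. Desmin (Des) ranged from 280 to 3271 in rich against 149 to 373 in poor libraries. Adipoq, the fat-cell hormone adiponectin, read 1874, 607 and 646 in the same 3 libraries and 9.13 to 225 in the other 4, against 6.76 to 568.3 in poor ones. The poor ovaries of 2 of these mice were also high in fat transcripts, so that the summed adipose list was only 1.25-fold and 1.24-fold higher in the rich ovary of DSS_10.4 and control_10.5, against 26.2-fold in DSS_11.2.

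**Figure D2:**
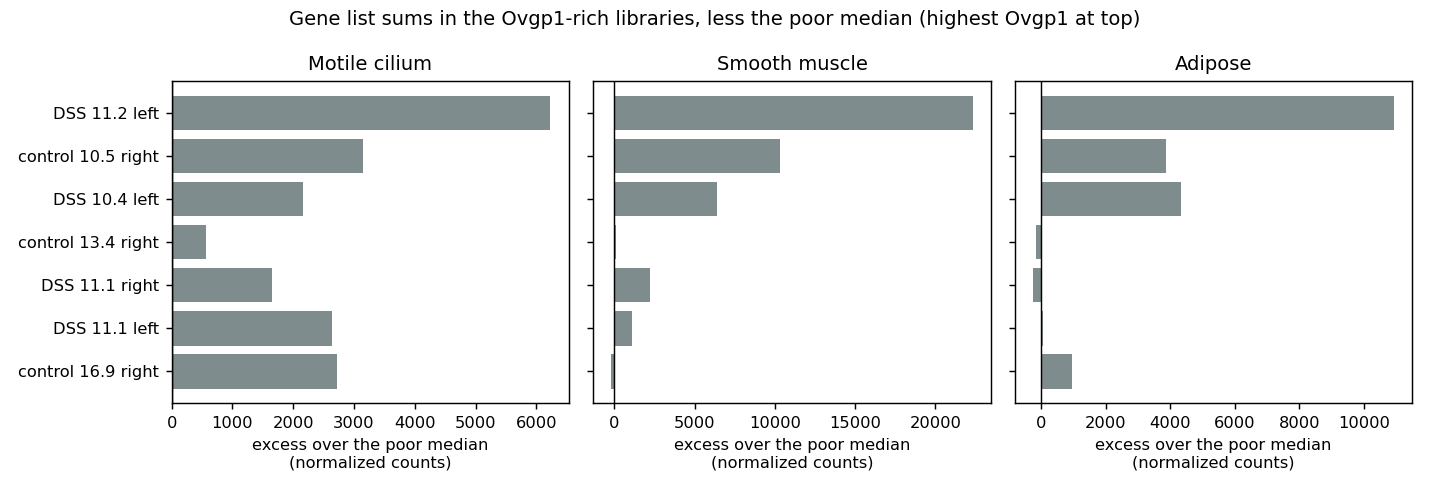
Summed normalized counts of 3 gene lists in the 7 rich libraries, less the median of the 23 poor libraries; 1 bar per library, highest Ovgp1 at the top. The cilium bar of control_16.9 right at the bottom is 2727, where the smooth muscle bar is below 0 (-196).

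Pgr, the progesterone receptor, read 803, 369 and 302 in the 3 libraries highest in Ovgp1, 94.6 to 130 in the other 4, and 14.03 to 105 in the poor ones. The plasma cell transcript Igkc read 631, 232 and 153 in those 3 and 33.7 to 289 in the other 4, against 11.9 to 111 in the poor ones. The summed endothelium list, in contrast, was 831 to 1105 in rich and 852 to 1137 in poor libraries, and the macrophage list 1149 to 2109 against 1115 to 2281. In bulk libraries, fewer cells of a type and less RNA per cell cannot be told apart, and neither can transcripts of adjoining tissue and transcripts of cells in the ovary.

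Granulosa genes were lower in the same 3 libraries. Inha, the inhibin alpha subunit, read 5022, 5960 and 7475 in them and 9352 to 12664 in the other 4, against 8466 to 15504 in the poor libraries. The summed granulosa list of the rich ovary was 0.541, 0.602 and 0.438 times that of the same mouse's poor ovary in DSS_10.4, DSS_11.2 and control_10.5, but 1.17 and 0.894 times in control_13.4 and control_16.9. In the 9 mice with a pair of poor ovaries, the ratio of one ovary to the other, taken both ways round, ran from 0.599 to 1.67. The ratios of DSS_10.4 and control_10.5 lay below that range, and those of DSS_11.2, control_13.4 and control_16.9 inside it. Of 14 granulosa genes, 13 had the lower median in the rich group (median -0.30), and 5 were lower in every mouse. Among those 5 were the receptor Fshr, the transcription factor Foxl2 and the aromatase Cyp19a1. Of all 14646 genes, 7498 had the lower median and 721 (4.92%) were lower in every mouse.

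Oocyte genes had mostly lower medians in the rich group. Of 19 measured genes, 18 had the lower median (median -0.31) and 5 were lower in every mouse. Among all 14646 genes, 7498 had the lower median and 721 were lower in every mouse. Gdf9, an oocyte-secreted growth factor, read 116 in DSS_11.2 left and 206 to 279 in the other 6, against 200 to 463 in the poor libraries, and was lower in the rich ovary of each mouse by 0.24 to 1.27 on the log2 scale. Summed oocyte ratios of rich over poor ovary were 0.719, 0.469, 0.757, 0.814 and 1.12 in DSS_10.4, DSS_11.2, control_10.5, control_13.4 and control_16.9, and 0.669 to 1.49 between the ovaries of the 9 other mice, taken both ways round. DSS_11.2 alone lay outside.

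Steroidogenic and luteal genes were low in 1 rich library. Lhcgr, the luteinizing hormone receptor, read 142 in DSS_11.2 left and 1562 to 2698 in the other 6, against 371 to 2596 in poor libraries. Cyp11a1, which starts steroid synthesis, read 1914 there and 8823 to 11170 in the other 6, against 5427 to 13001. The summed luteal list of DSS_11.2 left was 0.172 times that of the right ovary, and the theca and steroid list 0.280 times. In the other 4 mice with 1 rich ovary these ratios were 0.852 to 1.495 and 0.874 to 1.20. Between the ovaries of the 9 mice, both ways round, the range was 0.432 to 2.32 and 0.784 to 1.28. Low luteal values also occurred below the Ovgp1 limit: the ovaries of control_15.3 summed to 2073 and 2270 against a poor median of 6233.

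**Figure D3:**
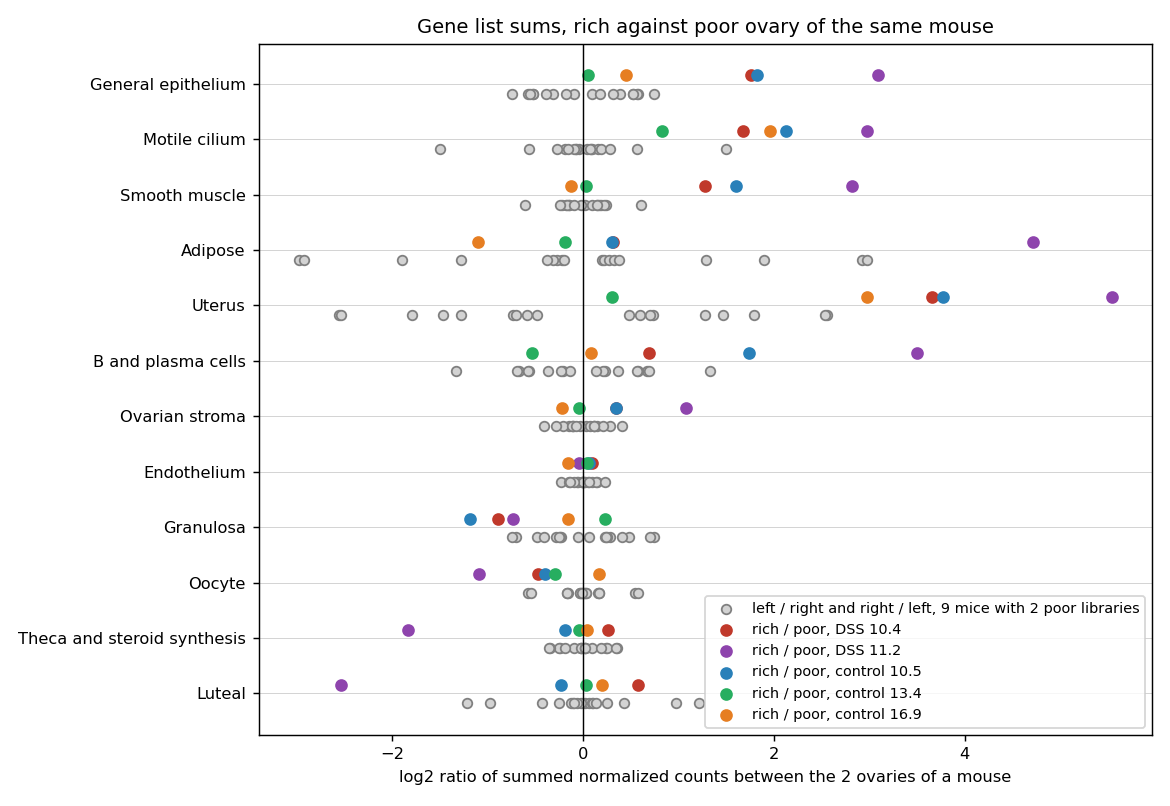
Log2 ratio of summed normalized counts between the ovaries of a mouse for 12 gene lists; coloured points are rich over poor in the 5 mice with 1 of each, and grey points are left over right and its inverse in the 9 mice with a pair of poor ovaries. Cilium points are right of the grey ones except that of control_13.4, granulosa points of DSS_10.4 and control_10.5 are left of them, and luteal and steroid points stand apart in DSS_11.2 only.

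Since no gene lay below all poor values, the 10 lower genes are those with the most negative difference among genes lower in the rich ovary of all 5 mice. They were Gm15564 (-1.33), the fatty acid elongase Elovl2 (-1.11), Cd160 (-1.03), Trim75, the blood-lineage factor Gata1, Pitx1, Nppc, 2410141K09Rik, Gm23037 and Dpysl5 (-0.80). Nppc, the natriuretic peptide precursor that granulosa cells use to hold oocytes in meiotic arrest, read 5 to 22.2 in rich and 9.42 to 44.7 in poor libraries. All but Pitx1 and Dpysl5 had poor medians of at most 19.9 normalized counts. These were low-level genes whose groups overlapped. Ribosomal protein genes, set beside these, had a median difference of -0.04. Of 77 members, 58 had the lower median in the rich group, against 7498 of all 14646 genes. Their sum was 399259 in control_10.5 right, 403348 in DSS_11.2 left and 414748 in DSS_10.4 left. In the other rich libraries it was 471894 to 499163, and in the poor ones 434885 to 530817.

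Treatment was compared with and without the rich libraries, per mouse, with limma on log2(mean + 1). With all 30 libraries, 0 of 14646 genes passed an adjusted p of 0.05 in either direction (0% higher, 0% lower). At an unadjusted p under 0.05, 704 were higher and 465 lower in DSS, while edgeR called 6 higher and 0 lower and DESeq2 51 higher and 1 lower on the recovered reads. Foxj1 differed by 1.63 with a standard error of 0.83 (limma adjusted p = 0.648). With the 23 poor libraries (6 DSS and 8 control mice, since DSS_11.1 had no poor ovary), 9 of 14460 genes were higher (0.0622%) and 1 lower (0.00692%). edgeR called 17 and 1 and DESeq2 87 and 13. These comparisons share most of their samples, and the difference between them was not tested. Leaving out the rich libraries took 3 left and 1 right ovaries from the DSS group, but 0 left and 3 right from the controls. The poor libraries are thus unbalanced by side, and some mice gave 1 ovary rather than the mean of both. No term for side was used, so side is not separated from DSS in the poor-library fit.

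The 5 largest increases of the poor-library fit were RP24-289C19.1, RP23-167J19.2, Gm45518, Gm29055 and Thumpd1. RP24-289C19.1 rose by 0.91 with a standard error of 0.16 (limma adjusted p = 0.0453). Its level was 53.2 to 93.1 in the 8 control mice and 83.0 to 189 in the 6 DSS mice, which overlap. Thumpd1, an RNA acetylation adaptor, read 43.0 to 72.1 in control and 72.2 to 113 in DSS mice; the groups just failed to overlap. Its difference was 0.70 without the rich libraries and 0.56 (limma adjusted p = 0.0926) with them. Map3k12, a neuronal stress kinase, was the gene that fell, by 0.48 with a standard error of 0.09 (limma adjusted p = 0.0453), with 194 to 261 in DSS and 259 to 416 in control mice. With all libraries it differed by -0.22 (limma adjusted p = 0.373). The remaining calls were 9930111J21Rik2, Gm37158, Gm45792 and Scaper, named after their values were seen. Gm37158 is annotated on chromosome Y although the mice were female, so where its reads came from is uncertain. RP23-167J19.2 lies within the span of the axoneme gene Lrriq1, Gm29055 within Dis3l2, and Map3k12 overlaps Pcbp2. Likewise, 9930111J21Rik2 overlaps Olfr56, Gm45792 overlaps Gm19950 and Acsm1, and Scaper overlaps Gm23407. All of these are therefore uncertain. None of the 10 was in the cilium lists or among the 43.

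The calls stood at the threshold. Leaving out 1 mouse at a time gave 0 to 22 higher calls; 10 of 14 omissions gave 0, leaving out control_15.3 gave 3 and leaving out DSS_15.1 gave 22. With the number before the point in the mouse label as a block, 19 genes were higher and 1 lower. In the poor libraries 10 of 10 keratinocyte markers had lower values in DSS (median -2.35), and none passed the test (smallest limma adjusted p = 0.313). Of all 14460 genes, 7168 were higher. The keratinocyte sum was also higher on the left in all 9 mice with a pair of poor ovaries, by at least 2.03-fold (median 2.82-fold). Left ovaries were scarcer among poor DSS than poor control libraries, so side and DSS cannot be told apart here. With all 30 libraries, where each mouse gave both ovaries, 0 of 9 markers were higher in DSS (median -1.81, smallest limma adjusted p = 0.501). The summed keratinocyte level was 55.9 to 6710 in DSS and 81.7 to 6302 in control poor libraries, and its part in the calls was not tested.

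**Figure D4:**
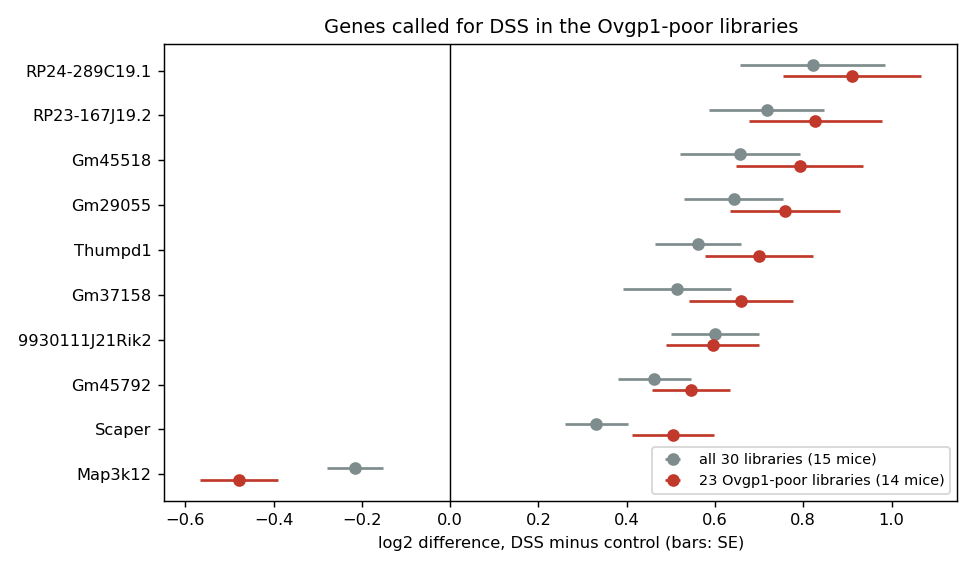
Log2 difference of DSS minus control, with standard errors as bars, for the 10 genes called in the Ovgp1-poor libraries; grey points use all 30 libraries and red points the 23 poor ones. Map3k12 is the gene below 0, at -0.48 in red and -0.22 in grey.

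For cilium genes, the median DSS difference over the 32 members measured in both fits was 0.38 with all libraries (32 higher) and 0.22 with poor libraries alone (26 higher); over all genes it was 0.00 in both. Of all 14379 genes measured in both fits, 7162 were higher with all libraries and 7134 with poor libraries alone. No cilium member passed the test in either fit. In the poor libraries A2ml1 differed by 1.16 with a standard error of 0.49 (limma adjusted p = 0.42) and Ccdc153 by 0.97 with 0.45 (limma adjusted p = 0.446). DSS_13.2 right, the poor library nearest the limit, is in this group. Side is not separated from DSS in the poor-library values.

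The DSS effect was then compared between sides, where the rich libraries fell unevenly. Over all 15 mice, limma called 0 of 14646 genes (0% positive, 0% negative), with 696 positive and 552 negative at an unadjusted p under 0.05. Dcpp1, a secreted protein with near-identical paralogs that may share its reads, had 4.34 with a standard error of 1.02 (limma adjusted p = 0.533). It read 179 in DSS_11.2 left and 171 in control_10.5 right. In the 9 mice with a pair of poor ovaries, 0 of 14411 genes were positive (0%) and 1 negative (0.00694%), with 268 and 289 at an unadjusted p under 0.05. That gene was Gm43028, a processed pseudogene, at -4.68 with a standard error of 0.53 (limma adjusted p = 0.00105). It read 11.9 to 32.6 in the left and 1.24 to 4.03 in the right ovaries of 5 control mice, against 0 to 6.86 and 0.7 to 21.1 in 4 DSS mice. Of all 14336 genes measured in both fits, 7034 were positive with all mice and 7064 in the 9 mice. The 36 cilium members measured in both fits had a median of 1.22 (34 positive) with all mice and -0.04 (16 positive) in the 9 mice. The rich libraries fell unevenly by side and treatment, so a DSS effect and their placement cannot be told apart in the first fit. That first median is therefore no test of DSS, and the difference between the fits was not tested.

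The poor ovaries of mice that had a rich library did not stand apart at the threshold. Between the 5 such mice and the 9 without one, with treatment as a term, limma called 0 of 14460 genes higher (0%) and 0 lower (0%), with 324 and 378 at an unadjusted p under 0.05. edgeR and DESeq2 called 0 as well. The smallest adjusted p was 0.98. A2ml1 differed by -0.62 with a standard error of 0.51 (limma adjusted p = 0.985), and cilium members were higher for 13 of 32, with a median of -0.03. Adipose members were higher for 8 of 8, with a median of 1.15, and Adipoq differed by 1.07 with a standard error of 0.74 (limma adjusted p = 0.981). Of all 14460 genes, 6640 were higher. Each of the 5 mice gave 1 ovary, a right one in DSS and a left one in controls. The 9 others gave the mean of both ovaries. No term for side was used, so side is not separated from these differences.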

How the data were processed

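CEL-Seq, which sequences the 3' ends of polyadenylated transcripts, was applied per the labels' protocols to total RNA of each ovary, with a pool of 3 primers per sample. The authors deposited 1 signal value per gene and ovary, a normalized count rounded to 2 decimals. Per the submitters' processing notes the tools were DESeq2, HTSeq and TopHat and the build was GRCm38.p5; versions, strand setting and molecular identifiers are not given in the sources used here. All columns were matched to samples. Within a library the values step by a fixed amount, 0.528 to 1.33, taken as 1 read, and 99.96% to 100% of values above 0 came out whole within 0.0051; for 3 libraries the step was within 1% of 1. Count tests used these reads, and their calls stand beside the limma ones.

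The members and the 25 gene lists were chosen with earlier results of these data known. Genes needed a mean of at least 5. Tests used limma 3.58.1 (trend, two-sided, Benjamini-Hochberg, threshold 0.05) in R 4.3.3 on mouse means after adding 1, or on left minus right differences. The pairing of left and right comes from the mouse named in the labels. edgeR 4.0.16 (quasi-likelihood) and DESeq2 1.42.0 ran on reads summed per mouse, and Fisher and binomial tests in scipy 1.17.1. The limma, edgeR and DESeq2 steps were tested on simulated data. Since nothing says how mice were housed or batched, p-values measure the spread between these mice. Identifiers matched GENCODE M21 for 50376 of 50600 genes, and coordinates are as deposited.

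Named were the 15 genes with the largest difference among those without overlap, 10 lower genes, up to 4 members per list by level, and per test and direction at most 5 called genes or, with no call, 3; not all are described. Others are said to be named after their values were seen. Alternatives changed the scaling, filter, pseudocount, limit (2000 or 10000), block, test and the libraries or mice left out. Those leaving out poor libraries, the other limits for the Fisher and binomial tests and the omission of single mice from the side comparison over all mice were chosen after seeing the data.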

Additional observations from a re-analysis of the deposited data

Results flagged for a closer look

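Within each group of 7 or 8 libraries of the same treatment and side, the highest and the lowest value of Ovgp1, Foxj1 and each list sum were compared with the rest by Dixon's ratio. It singled out 30 values in 108 group comparisons, where chance singles out about 1 in 20 if values are normally distributed. Whether these values are so distributed was not tested, so the share is a description. 26 of the 30 belonged to Ovgp1-rich libraries and 17 to DSS_11.2 left. Ovgp1 chose the rich libraries and makes up most of the oviduct list; without these measures, 22 of 26 values in 100 comparisons belonged to rich libraries and 15 to DSS_11.2 left. The lists share libraries, so these are not independent. All values are normalized counts.

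DSS_11.2 left was the highest of the DSS left ovaries for Ovgp1 (66716), Foxj1 (149), the oviduct list (71559), general epithelium (4222), ciliogenesis regulators (805), axoneme genes (5216), smooth muscle (26208) and Hox genes (2223). It was also the highest for uterus markers (2878), adipose (11572), surface epithelium and mesothelium (6791), MHC class II (6471), B and plasma cells (1587), luteinizing hormone response (912) and ovarian stroma (26889). It was the lowest for theca and steroid synthesis (49242) and for luteal genes (1094).

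Control_10.5 right was the highest of the control right ovaries for Ovgp1 (41925), the oviduct list (45045), general epithelium (2258), smooth muscle (14176), uterus markers (957), adipose (4497) and B and plasma cells (574). DSS_11.1 right was the highest of its group for smooth muscle (6131), and control_16.9 right for pituitary hormones (114). Among poor libraries, the ovaries of DSS_16.3 were the highest of their groups for keratinocyte markers, at 6710 on the left and 929 on the right. Control_15.3 left was the highest for luteinizing hormone response (476) and ovarian stroma (22721).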

How the results depend on the processing

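The count of 43 genes without overlap became 23 with a mean of at least 20, 131 without DSS_13.2 right, 146 without DSS_13.2 right and control_11.4 right, and 43 to 125 with 1 rich library left out, the 125 without control_13.4 right. At a limit of 2000 it was 61 genes, of which 13 were among the 43, and at 10000 it was 32, of which 9 were. The count below all poor values was 1 at a limit of 10000 and 0 to 1 with 1 rich library left out. Requiring the same direction in every mouse with 1 ovary of each kind (a block by mouse) gave 942 higher and 721 lower.

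For DSS against control over all libraries, edgeR gave 6 higher, DESeq2 51 higher and 1 lower, the block by label number 3 higher, and omission of 1 mouse 0 to 13 higher (13 without DSS_15.1). Over poor libraries the 9 higher calls became 14 with a pseudocount of 5, 14 with a mean of at least 20, 15 with TMM, 17 with edgeR, 87 with DESeq2, 19 with the block, 14 at a limit of 2000, 28 at 10000 and 0 to 22 with 1 mouse left out. The 1 lower call became 2 with a pseudocount of 5 or a mean of at least 20, 13 with DESeq2, 0 at a limit of 10000 and 0 to 1 with 1 mouse left out. The labels do not explain that number, and the cause of these changes was not tested.

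For the effect by side over all mice, omission of 1 mouse gave 0 to 1 positive and 0 to 2 negative calls. In the 9 mice the 1 negative call became 0 with a mean of at least 20 or without the mouse as a block, and 1 to 2 with 1 mouse left out. Between poor ovaries of mice with and without a rich library every alternative run gave 0. Fisher's p was 1 and 0.608 and the binomial p 0.453 and 1 at limits of 2000 and 10000. Among medians of lists and named genes, 0 changed direction beyond the spread over mice and 23 values under an alternative moved by more than that spread, while 2164 did not. With 5 mice holding 1 ovary of each kind, ratios of single low genes are imprecise.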
